A study of Mus musculus with 5 samples.

Results

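Among the circulating white blood cells of these mice, 3709 B cells carried at least 2 of the marker genes Vpreb3, Akap12, Agbl1, Cecr2 and Klhl14 while showing no transcript of Fcer2a, the gene of the mature B cell receptor CD23. They are called transitional-like here. They were selected on their own transcripts: a cell barcode with 200 or more genes and under 10% mitochondrial transcripts belonged to the set if it held at least 1 unique molecule (UMI) of Cd79a and none of Cd3e or Fcer2a, at least 2 of the 5 markers, at most 2 of the 8 genes Sox5, Lmo7, Zbtb32, Fcrl5, Nid1, Dnase1l3, Cacna1e and Tnfrsf8, and fewer than 10 summed UMIs of the platelet genes Pf4, Ppbp, Gp9, Clec1b and Tubb1. The 3709 cells were drawn from 28067 Cd79a-positive, Cd3e-negative cells, taken here as B cells, and from 62028 barcodes that passed the filter.

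The blood came from C57BL/6N mice, some of them on a regimen used to model the kind of heart failure in which ejection fraction is preserved (HFpEF). Peripheral blood mononuclear cells were frozen, thawed and profiled as 5 single-cell libraries: 2 from mice on regular chow, 2 from mice that ate a high-fat diet and took the nitric oxide synthase blocker L-NAME for 15 weeks (HFD + L-NAME), and 1 from mice on that regimen that also received NO2-OA, a nitro-fatty acid, in the last 4 weeks (the NO2-OA library). Ages, sexes and the number of animals behind each library were not given in the sources used here, so p-values below measure only the spread between libraries. The transitional-like cells numbered 799 and 686 in chow libraries 1 and 2, 833 and 730 in HFD + L-NAME libraries 1 and 2, and 661 in the NO2-OA library.

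B cells are made in the bone marrow and leave it as immature cells that pass through the blood to the spleen. On the way they are called transitional: they carry high surface IgM and the markers CD93 and CD24, and have yet to gain the IgD, CD21 (Cr2) and CD23 (Fcer2a) that mark mature follicular B cells. Most newly made cells that bind self are stopped while immature, mainly before they leave the bone marrow. Some of those change their light chain by further recombination. That step needs the RAG proteins and often moves a cell from the kappa to the lambda locus.

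The libraries held between 8488 and 17997 barcodes and between 71216133 and 122022000 UMIs. Transitional-like cells had a median of 5501 to 7358 UMIs per cell, close to Fcer2a-positive B cells of the same libraries (5384 to 7184). HFD + L-NAME library 2 stood apart: it had the deepest cells, and 92.6% of its transitional-like cells held 2 or more UMIs of genes of other blood cells, against 31.8 to 76.1% in the other libraries. The genes counted here, and wherever such cells are left out, were those listed for T, NK, monocyte, neutrophil and erythroid cells. Between 25 and 68 barcodes were shared by each pair of libraries, and 2 of them were transitional-like in both, in chow library 2 and the NO2-OA library. Where a result was also computed without HFD + L-NAME library 2 and depends on it, both values are given.

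The markers that chose the cells are described first, with no test. Levels are CPM, UMIs of a gene scaled to a common library total after summing over the cells of a population. Vpreb3 encodes a small protein of the endoplasmic reticulum that binds newly made immunoglobulin chains. Its level in transitional-like cells was 219.7 and 385 in chow 1 and 2, 251 and 448 in HFD + L-NAME 1 and 2, and 252 with NO2-OA, with 30.5 to 79 in Fcer2a-positive cells. Akap12, a scaffold that anchors protein kinases A and C, lay at 183 and 130.5 in chow 1 and 2, 169 and 339 in HFD + L-NAME 1 and 2, and 174 with NO2-OA. Agbl1, a cytosolic carboxypeptidase, lay at 721 and 699 in chow 1 and 2, 363 and 1023 in HFD + L-NAME 1 and 2, and 334 with NO2-OA. HFD + L-NAME library 2 held the highest level of both, and the HFD + L-NAME library 1 and NO2-OA library the lowest Agbl1 levels. Cecr2, a bromodomain protein of chromatin remodelling complexes, ranged from 418 to 672, and Klhl14, a BTB-Kelch protein of B cells, from 106 to 234.

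Detection was uneven among the markers. Cecr2 was found in 80.5 to 89.9% of transitional-like cells and Vpreb3 in 69.7 to 84%, while Agbl1 was found in 26.5 to 58.6%. Cecr2 and Vpreb3 were also the markers most often seen in Fcer2a-positive cells with fewer than 2 markers, in 21 to 29.2% and 13.8 to 27.6% of them, where Agbl1 reached 0.85 to 1.26%. Of the transitional-like cells with exactly 2 markers, 37.8 to 46.1% held the pair of Vpreb3 and Cecr2. It was the most frequent of the 10 pairs in each library.

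The sequence before the start of Vpreb3, the marker most tied to immunoglobulin assembly, and of Rag1, the recombinase gene measured below, are shown because the first helped choose the cells and the second is the enzyme of light chain recombination. RefSeq, in build GRCm38.p6, placed the 250 bases before Vpreb3 at chr10:75948050-75948299 on the plus strand and those before Rag1 at chr2:101649533-101649782 on the minus strand. Capitals mark matches, on either strand, to the octamer ATTTGCAT (reverse ATGCAAAT), known from immunoglobulin promoters, and to the E-box CAGGTG (reverse CACCTG), a form bound by E2A proteins. These motifs do not overlap, and the octamer was chosen after the sequence was seen.
Vpreb3: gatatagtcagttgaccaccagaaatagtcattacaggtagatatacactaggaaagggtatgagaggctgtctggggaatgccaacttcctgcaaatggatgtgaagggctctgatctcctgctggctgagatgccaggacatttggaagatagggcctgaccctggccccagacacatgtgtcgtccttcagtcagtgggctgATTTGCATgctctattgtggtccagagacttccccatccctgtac
Rag1: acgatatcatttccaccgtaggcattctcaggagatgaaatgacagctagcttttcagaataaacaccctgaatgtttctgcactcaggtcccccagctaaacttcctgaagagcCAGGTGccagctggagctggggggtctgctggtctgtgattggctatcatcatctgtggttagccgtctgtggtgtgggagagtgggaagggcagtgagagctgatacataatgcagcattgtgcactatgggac
The octamer occurred 1 time in the Vpreb3 window and in 1.6% of the 32851 promoter windows of this length. The E-box occurred 1 time in the Rag1 window and in 17.2% of all windows. Neither occurred in the windows of Agbl1 and Sox4, which says only that these letters are not there. The table had no entry for Akap12, Cecr2, Klhl14 and Cd93.

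The label was checked against genes that the rule did not use. Transitional-like cells held more Cd93, Cd24a, Sox4, Myb and Ighm and less Cr2 and Ighd than Fcer2a-positive B cells of the same libraries. The comparison cells were 9474 B cells with Fcer2a, fewer than 2 of the markers and the same limits on the other genes. Because the rule picks cells by transcripts of the same libraries, and other genes can vary with those transcripts, the gene tests below describe the selected cells and are no evidence that they form a separate type.

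Cd93, the complement C1q receptor-like protein used to sort immature B cells, was measured at 27.4 and 14.1 in chow 1 and 2, 23.3 and 21.9 in HFD + L-NAME 1 and 2, and 16.5 with NO2-OA. In Fcer2a-positive cells it ranged from 4.23 to 8.48, below each library's transitional-like value. The log2 difference was 1.67 ± 0.12 (SE, edgeR adjusted p = 3.98e-08). Cd24a, the heat-stable antigen, lay at 284 and 292 in chow 1 and 2, 243 and 384 in HFD + L-NAME 1 and 2, and 231 with NO2-OA against 143 to 173 in Fcer2a-positive cells. The groups did not overlap, with a log2 difference of 0.83 ± 0.06 (SE, edgeR adjusted p = 1.60e-07).

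Sox4, a transcription factor of early lymphocytes, showed a larger difference: 80.5 and 27.2 in chow 1 and 2, 38.9 and 65.8 in HFD + L-NAME 1 and 2, and 52.8 with NO2-OA, against 4.08 to 7.71. Its log2 difference was 2.98 ± 0.12 (SE, edgeR adjusted p = 2.67e-10). Myb, which early B cells need and mature ones lose, lay at 34.9 and 14.3 in chow 1 and 2, 20.8 and 42.2 in HFD + L-NAME 1 and 2, and 25.3 with NO2-OA against 1.62 to 3.73. That is a log2 difference of 3.07 ± 0.13 (SE, edgeR adjusted p = 1.40e-10). Sox4 and Myb were highest in chow library 1 and HFD + L-NAME library 2 and lowest in chow library 2, and the chow and HFD + L-NAME libraries overlapped.

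Ighm, the constant region of IgM, was the most abundant gene of this kind: 2991 and 2858 in chow 1 and 2, 2666 and 3527 in HFD + L-NAME 1 and 2, and 2568 with NO2-OA. In Fcer2a-positive cells it ranged from 1353 to 1667, with no overlap. The log2 difference was 0.92 ± 0.04 (SE, edgeR adjusted p = 2.82e-10). Rag1, the recombinase subunit that cuts the light chain loci, was rare. It was at 3.07 and 2.39 in chow 1 and 2, 1.7 and 6.42 in HFD + L-NAME 1 and 2, and 1.25 with NO2-OA, and in Fcer2a-positive cells at 0 to 0.226. These were 15, 10, 9, 37 and 5 UMIs in the same order, in 9, 6, 6, 14 and 2 cells. It was the 1 of the 4 precursor genes tested that passed, with an edgeR adjusted p of 1.23e-05; no fold is given because most Fcer2a-positive libraries held none.

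Of the 10 genes listed as immature or transitional, 7 were higher in transitional-like cells, none was lower, and the median log2 difference was 0.89, beside -0.01 for all genes tested. Across all 12947 genes tested, 2383 (18.4%) were higher and 2301 (17.8%) lower at an adjusted p under 0.05 in edgeR's quasi-likelihood test. The other members of the list were Bmf and Chchd10, which were higher, and Spn, Cd81 and Lair1, which did not pass.

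**Figure D1:**
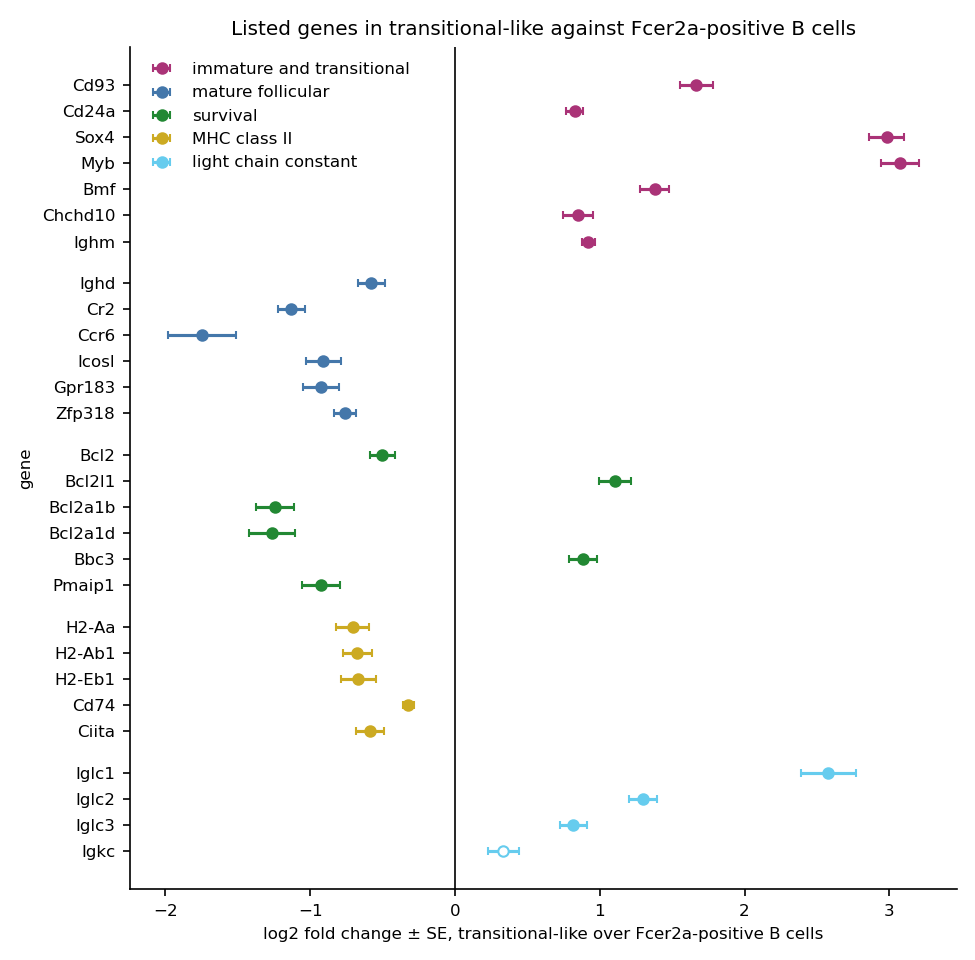
Log2 fold change (horizontal axis, with its standard error) of listed genes in transitional-like over Fcer2a-positive B cells, 1 row per gene and 1 colour per list; filled points passed an adjusted p of 0.05 and open points did not. Sox4 and Myb sit near 3, the lambda constant regions right of 0 and the 5 MHC class II genes drawn left of it.

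Genes of mature follicular cells went the other way. Cr2, the complement receptor CD21, lay at 59.5 and 57.5 in chow 1 and 2, 54.6 and 43.4 in HFD + L-NAME 1 and 2, and 49.8 with NO2-OA, below the 99 to 135 of Fcer2a-positive cells. The log2 difference was -1.13 ± 0.09 (SE, edgeR adjusted p = 5.65e-06). The ranges did not overlap.

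Ighd, the constant region of IgD, differed less. It lay at 232 and 501 in chow 1 and 2, 266 and 235 in HFD + L-NAME 1 and 2, and 250.3 with NO2-OA, and in Fcer2a-positive cells at 314 and 689 in chow 1 and 2, 349 and 476 in HFD + L-NAME 1 and 2, and 338 with NO2-OA. The ranges of the populations overlapped because chow library 2 was high in both, but within each library the transitional-like value was lower, with a log2 difference of -0.58 ± 0.09 (SE, edgeR adjusted p = 0.002). Zfp318, which is needed to splice transcripts toward IgD, was lower too, at -0.76 ± 0.08 (SE, edgeR adjusted p = 2.01e-05).

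Ccr6, a chemokine receptor of mature B cells, had the lowest value of the list, -1.75 ± 0.24 (SE, edgeR adjusted p = 0.00114). Icosl (-0.91 ± 0.12), the ligand of the T cell costimulator ICOS, Gpr183 (-0.93 ± 0.12), the oxysterol receptor that guides B cells in lymphoid tissue, and Klf2 (-0.50 ± 0.04), a regulator of lymphocyte traffic, were lower too. In all, 10 of the 15 genes listed as mature follicular were lower and 3 were higher, with a median of -0.50. The 3 higher genes were S1pr1, the receptor for egress into blood, at 0.45 ± 0.06, Tnfrsf13c, the BAFF receptor, at 0.45 ± 0.05, and Cd40 at 0.21 ± 0.06. Ccr7 and Cxcr5, the receptors for T zone and follicle, did not pass (0.07 ± 0.05 and -0.12 ± 0.05).

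Sox4, Ighm and Cd24a were graded by the number of markers a cell held. In Fcer2a-negative B cells with 0 markers Sox4 lay at 2.81 to 4.4 CPM over the libraries, in those with 1 marker at 2.76 to 11.9, and in members with 2, 3, 4 and 5 markers at 8.65 to 42.3, 37.9 to 83.2, 50.4 to 166 and 48.3 to 119. Ighm lay at 1008 to 1317 with no marker, 1914 to 2359 with 2 and 3618 to 4140.2 with 4. Cd24a lay at 144 to 177 with 1 marker and 317 to 451 with 4. For these 3 genes, cells with 2 markers sat between cells with 1 and cells with 3 in each library. Cd93 was less even, at 5.02 to 11.5 CPM with 0 markers, 7.63 to 19.5 with 2 and 23.9 to 37.8 with 4. It was lower with 2 markers than with 0 in chow library 2 (7.63 against 11.5) and the NO2-OA library (9.96 against 10.3).

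Ighd and Cr2 were lower with 5 markers than with 2 in each library. Ighd was 216 to 447 CPM with 0 markers, 264 to 599.6 with 2 and 167 to 267 with 5. Cr2 was 61.1 to 123, 59.7 to 83.8 and 10.3 to 32. From 0 to 2 markers neither gene fell throughout. Ighd was higher with 2 markers than with 0 in each library. Cr2 was higher with 2 in chow library 2 (79.3 against 61.1) and HFD + L-NAME library 2 (74.5 against 66.3), and lower in the others. Ms4a1, which encodes CD20, lay at 243 to 319.9 with 0 markers and at 904 to 1409 with 5. Median UMIs per cell were 4698 to 7396 with 0 markers and 5383 to 7784 with 5. These are descriptions of libraries, with no test.

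**Figure D2:**
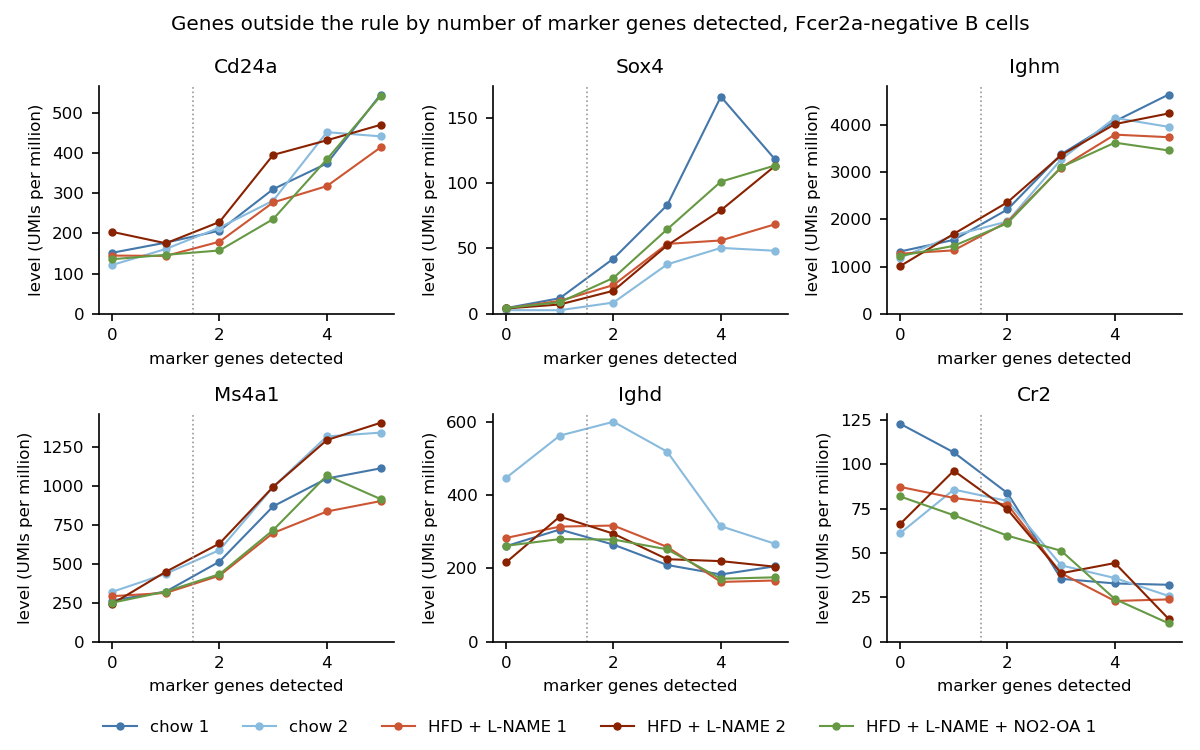
Levels (vertical axis, CPM, linear from 0) of 6 genes that the rule did not use, in Fcer2a-negative B cells by the number of marker genes detected (horizontal axis), 1 line per library; the dotted line is the limit of 2 markers. In every library Cd24a, Sox4, Ighm and Ms4a1 are higher, and Ighd and Cr2 lower, at 5 markers than at 2.

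At the edges of the rule, the members with exactly 2 markers numbered 415, 330, 440, 167 and 361 in the order chow 1, chow 2, HFD + L-NAME 1, HFD + L-NAME 2 and NO2-OA. Cells with 1 marker, just outside, numbered 921, 559, 1017, 178 and 789. A further 687, 1206, 833, 676 and 764 cells had 2 or more markers but also Fcer2a. Of those, 33.4 to 49.6% held a single Fcer2a UMI. In them Sox4 ranged from 11.3 to 32.6 CPM and Cr2 from 74.7 to 103, for Sox4 between the Fcer2a-positive and the transitional-like cells of each library.

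Genes of antigen receptor signalling showed no common direction. Of 24 genes listed, 9 were higher and 8 lower than in Fcer2a-positive cells, with a median of 0.01. The adaptor Blnk lay at 801 and 607 in chow 1 and 2, 569.8 and 835 in HFD + L-NAME 1 and 2, and 686 with NO2-OA against 303 to 363, a log2 difference of 0.98 ± 0.07 (SE, edgeR adjusted p = 1.78e-06). Cd79b, the signalling partner of the receptor, was higher as well (0.84 ± 0.05), as was the adaptor Dok3 (0.67 ± 0.07). The kinase Fyn was lower (-0.77 ± 0.06), and the kinase Syk did not pass (0.07 ± 0.04). Nr4a1, a gene that antigen receptor signals induce, lay at 224 and 194 in chow 1 and 2, 151 and 88.5 in HFD + L-NAME 1 and 2, and 191 with NO2-OA against 208 to 366. Its log2 difference was -0.82 ± 0.08 (SE, edgeR adjusted p = 3.82e-05). Also lower were Egr3 (-0.61 ± 0.07) and Nr4a3 (-0.77 ± 0.10). Fos and Jun, other immediate-early genes, did not pass, and Fosb was higher (0.36 ± 0.06). Of the 22 immediate-early genes listed, 4 were higher and 8 lower.

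The balance of survival genes differed in its members. Bcl2, the survival factor of mature lymphocytes, lay at 144 and 181 in chow 1 and 2, 91.3 and 89.2 in HFD + L-NAME 1 and 2, and 156 with NO2-OA and was lower than in Fcer2a-positive cells (-0.50 ± 0.08). The related Bcl2a1b (-1.24 ± 0.13) and Bcl2a1d (-1.26 ± 0.16), near-identical copies between which counts can be split, were also lower. Bcl2l1, which encodes Bcl-xL, lay at 25.8 and 12.9 in chow 1 and 2, 17.4 and 27.2 in HFD + L-NAME 1 and 2, and 23 with NO2-OA against 6.93 to 11.6 and was higher, 1.11 ± 0.11 (SE, edgeR adjusted p = 1.99e-06). Among genes that promote cell death, Bmf lay at 45.4 and 16.5 in chow 1 and 2, 40.6 and 41.8 in HFD + L-NAME 1 and 2, and 32.3 with NO2-OA against 6.93 to 18.5, 1.38 ± 0.10 (SE, edgeR adjusted p = 5.60e-08). Bbc3, which encodes Puma, was higher (0.88 ± 0.10) and Pmaip1, which encodes Noxa, was lower (-0.93 ± 0.13). Bcl2l11, which encodes Bim, had 0.78 ± 0.21 (SE, edgeR adjusted p = 0.0512) and did not pass. Of the 18 genes in the list of survival and BAFF receptors, 9 were higher and 5 lower, with a median of 0.29.

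Among 22 transcription factors of B cells 13 were higher and 4 lower, with a median of 0.18. Spib, an Ets factor, had the largest difference: 93.2 and 129 in chow 1 and 2, 82.2 and 163 in HFD + L-NAME 1 and 2, and 75.8 with NO2-OA against 31.1 to 47.2, 1.46 ± 0.08 (SE, edgeR adjusted p = 3.51e-09). Tcf3, which encodes E2A (0.71 ± 0.06), Irf4 (0.61 ± 0.05) and Foxo1 (0.47 ± 0.04), which drives Rag expression in early B cells, were higher. Pax5 and Ebf1, the factors that define B cells, differed by 0.19 ± 0.04 and 0.14 ± 0.04. Bhlhe41, a factor known from B-1 cells, lay at 69.3 and 42.5 in chow 1 and 2, 45.4 and 73.9 in HFD + L-NAME 1 and 2, and 43 with NO2-OA against 6.49 to 8.22, 2.80 ± 0.17 (SE, edgeR adjusted p = 5.54e-06). It was the 1 gene of 7 in the B-1 list that passed; Cd5, which defines many B-1 cells, had 0.24 ± 0.28. S1pr3, known from marginal zone B cells, was at 1.67 to 4.5 CPM against 0.308 to 1.3, and of the 8 marginal zone genes tested 4 were higher and 2 lower.

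All 10 genes of MHC class II presentation that were listed were lower in transitional-like cells, with a median of -0.55. H2-Aa, an alpha chain, lay at 1204 and 2124 in chow 1 and 2, 1669 and 1083 in HFD + L-NAME 1 and 2, and 1558 with NO2-OA and in Fcer2a-positive cells at 1855 and 3090.0 in chow 1 and 2, 2421 and 2468 in HFD + L-NAME 1 and 2, and 2207 with NO2-OA. Each library had the lower value in the transitional-like cells, with a log2 difference of -0.71 ± 0.12 (SE, edgeR adjusted p = 0.00721). Ciita, the master regulator of these genes, was lower at -0.59 ± 0.10 (SE, edgeR adjusted p = 0.00115), and Cd74, the invariant chain, had the smallest difference of the list (-0.32 ± 0.04). Of 28 interferon-stimulated genes tested 8 were higher and none lower, with a median of 0.21; Mx1 (3.47 to 5.25 CPM against 0.649 to 1.85) and Ifi27l2a (0.60 ± 0.06) were among them, while Isg15 (-0.50 ± 0.21) did not pass.

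The light chains differed as well. Iglc1, the constant region of lambda 1, lay at 328 and 702 in chow 1 and 2, 396 and 998 in HFD + L-NAME 1 and 2, and 379 with NO2-OA in transitional-like cells and at 40.1 and 146 in chow 1 and 2, 51.9 and 142 in HFD + L-NAME 1 and 2, and 90.3 with NO2-OA in Fcer2a-positive cells. Its log2 difference was 2.58 ± 0.19 (SE, edgeR adjusted p = 6.99e-04); Iglc2 (1.30 ± 0.10) and Iglc3 (0.82 ± 0.09) were higher too. These 2 constant regions are near-identical, so their counts may be shared. Igkc, the kappa constant region, had 0.33 ± 0.11 (SE, edgeR adjusted p = 0.0693) and did not pass.

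Counted by cell, transitional-like cells carried lambda more often. Among cells with 5 or more light chain UMIs, more lambda than kappa UMIs were found in 19% and 16.7% in chow 1 and 2, 13.1% and 26.3% in HFD + L-NAME 1 and 2, and 14.9% with NO2-OA. In Fcer2a-positive cells the share was 3.65 to 6.7% and in marker-low Fcer2a-negative cells 4.73 to 8.09%. The difference from Fcer2a-positive cells averaged 12.2 percentage points (SD 4.83, n = 5 libraries), higher in 5 of 5. An exact two-sided paired permutation test gave p = 0.0625, the smallest that 5 pairs allow. Against the marker-low cells it averaged 11.7 points (p = 0.0625 in the same exact test). Without HFD + L-NAME library 2 the 2 averages were 10.2 and 10.1 points, higher in 4 of 4 libraries. The Benjamini-Hochberg adjusted values over these and the comparison with Sox5-type cells below are 0.0938, 0.0938 and 0.188, in that order. The measure was chosen after the data were seen.

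The lambda share by number of markers was 3.86 to 6.52% of Fcer2a-negative B cells with 0 markers, 5.65 to 9.62% with 1, 8.75 to 17.4% with 2, 12.9 to 25.3% with 3 and 18.7 to 31.1% with 4 or 5. In the NO2-OA library the share with 3 markers, 21.8%, was above that with 4 or 5, 18.7% (exact 95% intervals 15.9 to 28.7% and 12.2 to 26.7%, for counting error only). Its shares with 0 and 1 marker were alike. In the other 4 libraries the share went up at each step.

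**Figure D3:**
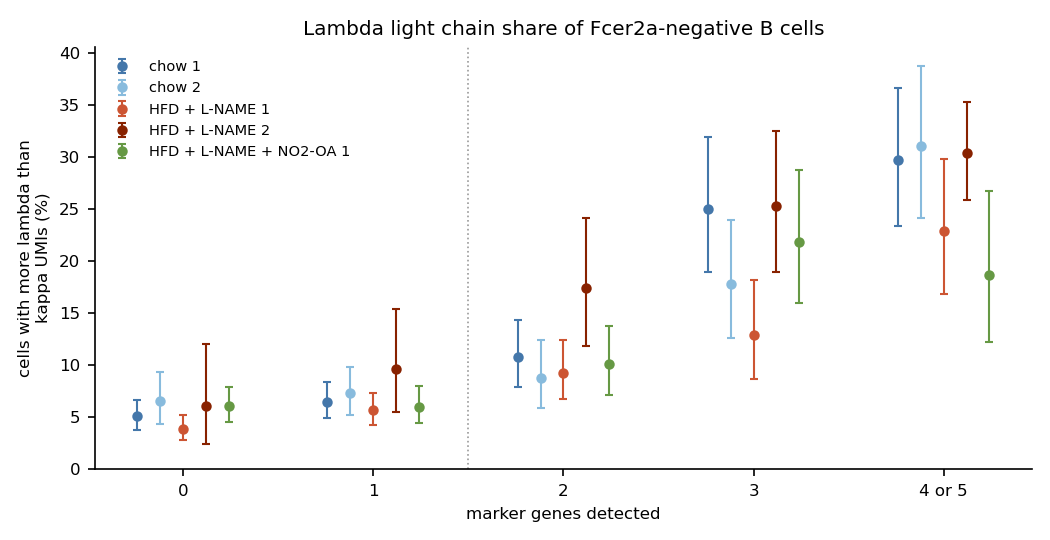
Share of Fcer2a-negative B cells with more lambda than kappa UMIs (vertical axis, %, with exact 95% binomial intervals for counting error only) by the number of marker genes detected (horizontal axis), 1 point per library; the dotted line is the limit of 2 markers. All libraries lie under 10% with 0 or 1 marker and between 18.7 and 31.1% with 4 or 5.

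Beyond the lists, the largest differences from Fcer2a-positive cells were led by Tram2, a protein of the endoplasmic reticulum translocon. It lay at 138 and 66.8 in chow 1 and 2, 77.7 and 169 in HFD + L-NAME 1 and 2, and 86 with NO2-OA against 14.2 to 16.8, 2.63 ± 0.19 (SE, edgeR adjusted p = 1.35e-04). Bcr, a regulator of small GTPases (2.47 ± 0.14), Serinc5, a membrane protein that restricts retroviruses (2.43 ± 0.10), Atp1b1, a subunit of the sodium pump (2.29 ± 0.08), and Tifa, an adaptor of NF-kB signalling (2.21 ± 0.12), followed. Further genes were Gpat3 (2.21 ± 0.12), an enzyme of triglyceride synthesis, Pafah1b3 (2.01 ± 0.15), Tcf7l2 (1.98 ± 0.16), a Wnt pathway factor, and Sema4b (1.85 ± 0.09). Each was higher in 5 of 5 libraries. Serinc5 lay at 142 and 161 in chow 1 and 2, 137 and 202 in HFD + L-NAME 1 and 2, and 155 with NO2-OA, against 23.8 to 32.2.

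On the lower side stood St6galnac3 (-1.45 ± 0.20), a sialyltransferase, Rapgef4 (-1.43 ± 0.30), a cAMP-activated exchange factor for Rap, Gpr174 (-1.43 ± 0.27), a lysophosphatidylserine receptor, and Atxn1 (-1.39 ± 0.18). The others were Klf12 (-1.37 ± 0.20), Tnik (-1.36 ± 0.23), a kinase, Setbp1 (-1.33 ± 0.19), Gimap4 (-1.30 ± 0.27), a GTPase of lymphocytes, Stat4 (-1.24 ± 0.20) and Ly6a (-1.24 ± 0.18), which encodes Sca-1. Gpr174 lay at 31.9 and 42.7 in chow 1 and 2, 37.2 and 16.8 in HFD + L-NAME 1 and 2, and 33.5 with NO2-OA against 71 to 105. Rapgef4 did not pass when chow library 1 (edgeR adjusted p = 0.0707), chow library 2 (0.0670) or HFD + L-NAME library 1 (0.0845) was left out, nor Gimap4 without the same libraries in turn (0.0757, 0.0506 and 0.0519), nor Gpr174 without chow library 1 (0.0625).

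Cell cycle genes gave no common direction, with 1 of 17 higher (Aurkb) and 1 lower (Tubb5). Mki67, the proliferation marker, lay at 5.11 and 2.86 in chow 1 and 2, 1.51 and 17 in HFD + L-NAME 1 and 2, and 2.5 with NO2-OA and did not pass (1.22 ± 0.56). Genes of lipid and cholesterol metabolism were split at 4 higher and 4 lower of 18; Scd2, a fatty acid desaturase, lay at 31.5 to 68.2 CPM against 10.5 to 17.1, and Abca1, a cholesterol exporter, was lower (-0.59 ± 0.06). Of 16 NRF2 target genes 2 were higher and 3 lower, and of 14 homing receptors 3 were higher and 5 lower.

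Markers of other blood cells were compared in the same way. In the T, NK, monocyte, neutrophil, erythroid and platelet lists, no gene was higher and 3 were lower in transitional-like than in Fcer2a-positive cells. Of the 6 plasma cell genes tested 4 were higher, with Irf4 among them, and of the 6 dendritic cell genes 2 were higher and 2 lower. The plasma list summed, in CPM, to 744 and 399.7 in chow 1 and 2, 346 and 412 in HFD + L-NAME 1 and 2, and 474 with NO2-OA. The summed level of the 12 T cell genes was 18.4 to 86.8 CPM in transitional-like cells and 22.7 to 109 in Fcer2a-positive cells. The 8 erythroid genes summed to 6199 and 71.8 in chow 1 and 2, 4921 and 9734 in HFD + L-NAME 1 and 2, and 12901 with NO2-OA, and to 799 to 12665 in Fcer2a-positive cells; their part in the results was not tested beyond leaving such cells out. With cells holding 2 or more UMIs of T, NK, monocyte, neutrophil and erythroid genes left out, 2931 genes passed in place of 4684. The platelet, plasma and dendritic lists took no part in that step. Of the 4402 called genes still tested 4399 kept their direction. In HFD + L-NAME library 2 that step took out 676 of the 730 transitional-like and 633 of the 689 Fcer2a-positive cells. The part of the smaller number of cells was not tested.

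Set against cells of the Sox5, Zbtb32 and Fcrl5 kind (831 Fcer2a-negative B cells with 3 or more of the 8 excluded genes and fewer than 2 markers), transitional-like cells had 6 of the 10 immature and transitional genes higher and 2 lower. The lower ones were Spn (-1.47 ± 0.25), the sialoglycoprotein CD43, and Cd81 (-0.35 ± 0.09), a tetraspanin, and Ighm and Lair1 did not pass. Of 12454 genes in all, 1986 (15.9%) were higher and 1977 (15.9%) lower. Tmem108, a transmembrane protein, lay at 119 and 86.1 in chow 1 and 2, 139 and 179.6 in HFD + L-NAME 1 and 2, and 129.5 with NO2-OA against 2.21 to 10.2, 4.75 ± 0.29 (SE, edgeR adjusted p = 9.54e-06). Serinc5 (3.70 ± 0.31) and Dusp6 (2.96 ± 0.21), a phosphatase of ERK, were among the largest on this side. On the other side S100a6, a calcium-binding protein, lay at 41.1 and 71.8 in chow 1 and 2, 91.1 and 53.4 in HFD + L-NAME 1 and 2, and 73 with NO2-OA against 453 to 2534, -4.55 ± 0.50 (SE, edgeR adjusted p = 0.00302), with Plscr1 (-4.23 ± 0.30), Lgals1 (-3.14 ± 0.16) and Ly6a (-3.39 ± 0.44).

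Ighm in the Sox5 kind ranged from 2202 to 3317 CPM, and the log2 difference of -0.07 ± 0.11 did not pass. Sox4 (4.47 ± 0.54) and Cd93 (3.41 ± 0.41) were higher in transitional-like cells, as was Ighd (1.26 ± 0.19). The lambda share of the Sox5 kind was 10.6 to 17.3%; transitional-like cells were above it in 4 of 5 libraries, by 3.99 points on average (SD 6.33), p = 0.1875 in the exact paired permutation test. Most of that average came from HFD + L-NAME library 2: without it the difference was 1.23 points (SD 1.74, n = 4, p = 0.375 in the same exact test, which with 4 pairs cannot go below 0.125). Leaving out libraries here was chosen after the data were seen. The Sox5 cells were deeper, at 7480.0 to 17592 median UMIs, and with each cell thinned to 2000 UMIs 2072 genes passed in place of 3963. Thinning left 8888 genes tested in place of 12454. Of the 3368 called genes still tested 3337 kept their direction. Genes of other blood cells also differed: 4 of 10 neutrophil genes were higher in transitional-like cells, with a median over the list of 2.59, as were 3 of 9 platelet, 2 of 8 erythroid and 2 of 10 monocyte genes, and none of these lists had a lower gene. Across all genes tested 15.9% were higher, and the erythroid and monocyte counts lay near that share. The neutrophil genes summed to 7.39 to 1656 CPM in transitional-like cells and 3.46 to 329 in the Sox5 kind. With cells holding 2 or more UMIs of T, NK, monocyte, neutrophil and erythroid genes left out, 1499 genes passed in place of 3963. Platelet genes took no part in that step. Of the 3188 called genes still tested 3164 kept their direction. That step took out 270 of the 275 Sox5 cells of HFD + L-NAME library 2 and 119 of the 135 of the NO2-OA library. The part of such UMIs and that of the smaller number of cells were not tested further.

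Marker-low cells, 7413 B cells that met each part of the rule except the 2 markers, were compared next, and 7 of the 10 immature and transitional genes were higher in transitional-like cells. The lower ones were Spn (-1.65 ± 0.20) and Lair1 (-1.68 ± 0.37), an inhibitory receptor for collagen. Of 13210 genes 1981 (15.0%) were higher and 1864 (14.1%) lower in transitional-like cells. Sox4 differed by 3.05 ± 0.14, Ighm by 1.06 ± 0.05 and Cr2 by -0.73 ± 0.09. Ighd differed less, at -0.19 ± 0.05. Niban3 led the higher genes, at 79.5 and 61.1 in chow 1 and 2, 46.1 and 85 in HFD + L-NAME 1 and 2, and 54.3 with NO2-OA against 4.05 to 12.1, 2.96 ± 0.18 (SE, edgeR adjusted p = 2.20e-05). The lower genes were led by Fn1, fibronectin (0.613 to 30.8 CPM against 6.44 to 204), with Lyz2 (lysozyme) and S100a4. With cells holding 2 or more UMIs of other blood cells left out, none of these 3 passed (edgeR adjusted p = 0.289, 0.719 and 0.114). Fn1 and Lyz2 are among the genes by which those cells were left out. The loss of their calls can follow from that step alone. It also took out 327 of the 354 marker-low cells of HFD + L-NAME library 2. Fn1, Lyz2 and S100a4 are genes of monocytes. Of the 10 monocyte genes listed 7 were lower in transitional-like cells, with a median of -1.72. The list summed to 129 to 548 CPM in transitional-like and 266 to 2133 in marker-low cells. Of the T cell genes 7 of 12 were lower as well (median -1.09), and of the NK genes 3 of 8 (median -1.43).

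By the rule as stated, transitional-like cells made up 11.6 to 12.6% of B cells in 4 libraries and a larger share in HFD + L-NAME library 2. The share was 11.6% and 11.9% in chow 1 and 2, 12.6% and 21.9% in HFD + L-NAME 1 and 2, and 12.1% with NO2-OA. The groups did not overlap, but HFD + L-NAME library 1 lay close to chow, and library 2 (exact 95% interval 20.5 to 23.3%, for counting error only) held nearly the whole difference. The means were 11.7 ± 0.223% (SD, n = 2) for chow and 17.3 ± 6.54% (SD, n = 2) for HFD + L-NAME. An exact two-sided permutation test gave p = 0.333, the smallest that 2 libraries against 2 allow. Without HFD + L-NAME library 2 the difference of 5.51 points became 0.883 points. The NO2-OA library lay between the chow libraries and HFD + L-NAME library 1; with 1 library it has no replicate and no test.

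The count depends on the depth of a cell, so the rule was repeated on cells thinned to 3000 UMIs, with shallower cells left out. The shares were then 11.4% and 12.6% in chow 1 and 2, 12.1% and 26.7% in HFD + L-NAME 1 and 2, and 10.4% with NO2-OA. The chow and HFD + L-NAME libraries then overlapped, with HFD + L-NAME library 2 still highest. As a share of all barcodes that passed the filter, the cells made up 4.63% and 6.42% in chow 1 and 2, 6.99% and 9.5% in HFD + L-NAME 1 and 2, and 4.56% with NO2-OA. With 3 or more markers required, the shares were 5.57% and 6.18% in chow 1 and 2, 5.96% and 16.9% in HFD + L-NAME 1 and 2, and 5.48% with NO2-OA. With cells counted whether or not they held Fcer2a, the shares were 21.5% and 32.8% in chow 1 and 2, 25.3% and 42.1% in HFD + L-NAME 1 and 2, and 26% with NO2-OA. In that count chow library 2 lay above HFD + L-NAME library 1, so the groups overlapped (p = 0.667, exact permutation test). HFD + L-NAME library 2 differed from the rest in which cells it held: 387 of its 730 transitional-like cells had 4 or 5 markers, against 196 of 799 and 164 of 686 in chow, 177 of 833 in HFD + L-NAME library 1 and 123 of 661 in the NO2-OA library.

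**Figure D4:**
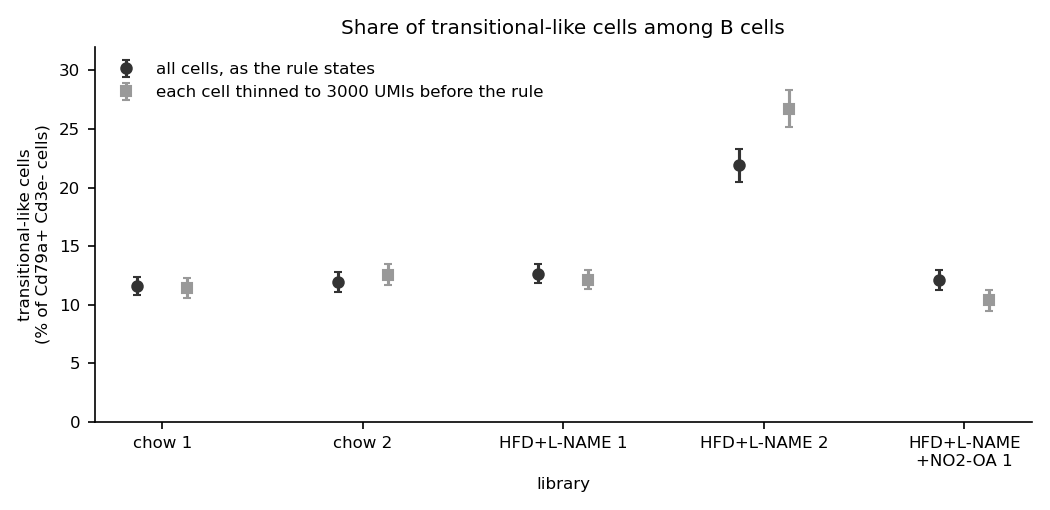
Share of transitional-like cells among Cd79a-positive, Cd3e-negative cells (vertical axis, %) in each of the 5 libraries (horizontal axis), for all cells and for cells thinned to 3000 UMIs before the rule; bars are exact 95% binomial intervals for counting error only. HFD + L-NAME library 2 sits at 21.9%, and the other libraries between 11.6 and 12.6%.

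Within transitional-like cells, no gene passed the test for HFD + L-NAME against chow. Of 11957 genes 0 (0.0%) had an adjusted p under 0.05 in edgeR, 198 had an unadjusted p under 0.05, and DESeq2 called 0. Leaving out 1 library gave 261 genes without chow library 1, 105 without chow library 2, 2 without HFD + L-NAME library 1 and 3 without HFD + L-NAME library 2, with the lone library assumed to vary like the others. Both HFD + L-NAME libraries lay above both chow libraries for 1551 genes (13.0%) and below them for 1474 (12.3%). Cd93, Cd24a, Sox4, Myb and Ighm had log2 differences of 0.13 ± 0.33, 0.12 ± 0.26, -0.04 ± 0.49, 0.35 ± 0.46 and 0.08 ± 0.28, each with overlap of the groups. The 10 immature genes had a median of 0.10, the 15 mature follicular genes -0.23 and the 10 MHC class II genes -0.21, beside -0.0022 for all genes.

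The values of 5 genes with the smallest p in each direction are given as values that did not pass. They were taken only from genes outside the rule with a mean of at least 4 log2 CPM and no overlap of the groups. Their separation of chow from HFD + L-NAME was therefore set by the choice. Bcl2 lay at 144 and 181 in chow 1 and 2, 91.3 and 89.2 in HFD + L-NAME 1 and 2, and 156 with NO2-OA: both HFD + L-NAME libraries were below both chow libraries, and the NO2-OA library lay among the chow values. Its log2 difference was -0.85 ± 0.21 (SE, edgeR adjusted p = 1), with -0.66 within replicate 1 and -1.01 within replicate 2. Rapgef4 lay at 42.7 and 64.4 in chow 1 and 2, 25.7 and 19.6 in HFD + L-NAME 1 and 2, and 57.3 with NO2-OA and had -1.24 ± 0.29 (SE, edgeR adjusted p = 1), with -0.71 within replicate 1 and -1.67 within replicate 2. Fgf13, an intracellular fibroblast growth factor homologue, lay at 97.1 and 72.3 in chow 1 and 2, 47.8 and 45.6 in HFD + L-NAME 1 and 2, and 91.3 with NO2-OA, -0.85 ± 0.22 (SE, edgeR adjusted p = 1), with -1.01 within replicate 1 and -0.65 within replicate 2. Without chow library 1, Bcl2 and Rapgef4 passed (edgeR adjusted p = 0.000543 and 3.10e-07), and without chow library 2 Fgf13 did (0.00253). Fgf13 lost its direction (0.11) when cells with UMIs of other blood cells were left out. That step took out 676 of the 730 transitional-like cells of HFD + L-NAME library 2. In Bcl2, Rapgef4 and Fgf13 the NO2-OA library was above both HFD + L-NAME libraries, as 1 library with no test. The same held for Grap2, given next, while for Myl9 the NO2-OA library lay under both. Genes chosen for low HFD + L-NAME values can lie higher in a further library through that choice alone.

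Grap2, an adaptor of antigen receptor signalling, lay at 104 and 97.1 in chow 1 and 2, 64.1 and 60.9 in HFD + L-NAME 1 and 2, and 79 with NO2-OA, with -0.68 ± 0.19 and -0.69 within replicate 1 and -0.66 within replicate 2. Myl9, a myosin light chain abundant in platelets, lay at 64.2 and 36.3 in chow 1 and 2, 23.6 and 17.7 in HFD + L-NAME 1 and 2, and 4.75 with NO2-OA, with -1.27 ± 0.32 and -1.40 within replicate 1 and -0.99 within replicate 2. In Fcer2a-positive cells Myl9 lay at 54.8 and 31.8 in chow 1 and 2, 30.8 and 17.1 in HFD + L-NAME 1 and 2, and 4.38 with NO2-OA, in the same order of groups, and the 9 platelet genes listed summed to 455 and 245 in chow 1 and 2, 290.0 and 149 in HFD + L-NAME 1 and 2, and 74.3 with NO2-OA in transitional-like cells; the part of platelet RNA was not tested.

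On the higher side Epb41l4b, a cytoskeletal protein, lay at 13.9 and 8.59 in chow 1 and 2, 25.3 and 26.2 in HFD + L-NAME 1 and 2, and 20.0 with NO2-OA, with 1.19 ± 0.30 and 0.82 within replicate 1 and 1.5 within replicate 2. Gda, guanine deaminase, lay at 9.81 and 8.59 in chow 1 and 2, 33.1 and 16.3 in HFD + L-NAME 1 and 2, and 24.5 with NO2-OA, with 1.43 ± 0.39 and 1.66 within replicate 1 and 0.85 within replicate 2. Gda was also higher in marker-low than in transitional-like cells, beside the monocyte genes. Zfp53 (0.71 ± 0.21), H2ac25 (0.68 ± 0.21), a histone H2A gene, and Ppp2r3a (0.76 ± 0.23), a phosphatase 2A subunit, completed the set. Without chow library 1, Epb41l4b, Gda, H2ac25 and Ppp2r3a passed (edgeR adjusted p = 0.00171, 0.00335, 0.0284 and 0.0390). The 10 neutrophil genes listed summed to 309 and 7.39 in chow 1 and 2, 1656 and 509.7 in HFD + L-NAME 1 and 2, and 1381 with NO2-OA, higher in both HFD + L-NAME libraries than in chow; their part was not tested.

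**Figure D5:**
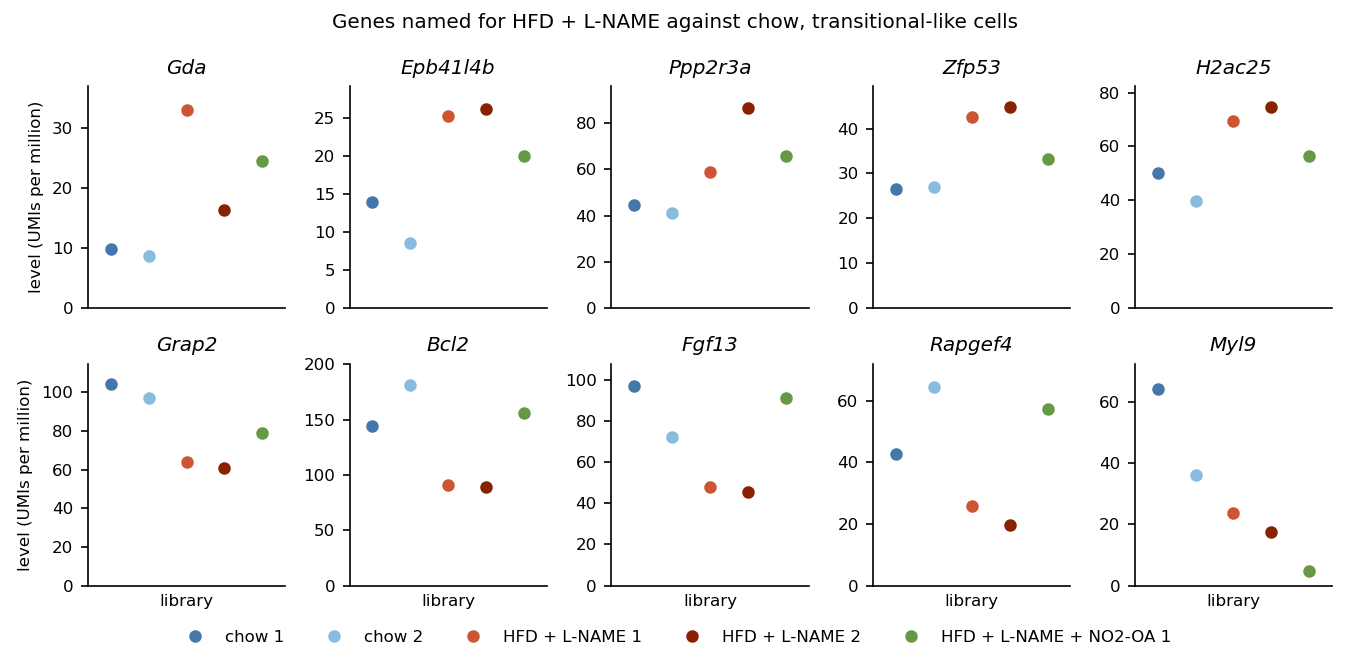
Levels (vertical axes, CPM, linear from 0) in transitional-like cells of the 10 genes named for HFD + L-NAME against chow, 1 point per library along the horizontal axis. None passed the test. They had the smallest p, 5 each way, among genes with a mean of at least 4 log2 CPM and no overlap of the groups. By that choice the HFD + L-NAME points lie above both chow points in the 5 genes of the top row. In the 5 of the bottom row they lie below both.

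Whether the regimen acted differently on transitional-like than on Fcer2a-positive cells was tested as an interaction over the 4 libraries. Of 12833 genes 1 (0.00779%) passed: Retnla, a secreted resistin-like protein of macrophages. Its log2 difference of differences was -5.73 ± 0.70 (SE, edgeR adjusted p = 0.032). Retnla was at 0, 13, 0, 8 and 0 UMIs in the transitional-like cells of the 5 libraries and at 0, 55, 0, 545 and 0 UMIs in Fcer2a-positive cells. A single Fcer2a-positive cell of HFD + L-NAME library 2 held 537 of the 545, and without that library the value was 0.48. The count of 1 gene became 0 without chow library 1, 6 without chow library 2, 259 without HFD + L-NAME library 1 and 29 without HFD + L-NAME library 2. Under DESeq2 and with doublets left out 1 gene passed too, but it was a higher one, and Retnla did not pass (adjusted p = 1 in DESeq2 and 0.0619 in edgeR). Bcl2 had an interaction of -0.20 ± 0.16 (SE, edgeR adjusted p = 1), which did not pass.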

How the data were processed

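Blood mononuclear cells of 5 mouse libraries were profiled by 10x 3' single-cell sequencing. The deposited values are raw UMI counts per gene and barcode, made with Cell Ranger 7.1.0 per the file headers; the submitters' processing notes name the build mm39, and the annotation release is not given in the sources used here. No value had been normalized. Members were found by the rule given in the report on the raw counts, and the members and gene lists were chosen with earlier results of these data known.

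UMIs were summed per library and population. Sums were tested with edgeR 4.0.16's quasi-likelihood test (TMM scaling, low-count filter, Benjamini-Hochberg adjustment, threshold 0.05): HFD + L-NAME against chow over 4 libraries, and populations against each other over 5 libraries with the library as a block. The 21 genes of the rule were left out of the calls between populations. They were kept in the counts for the regimen and for the interaction. The code was tested on simulated data. Predicted doublets (the top Scrublet scores in scanpy 1.11.5) were kept and left out as an alternative, as were cells with UMIs of other blood cells. Alternatives were DESeq2 1.42.0 and its size factors, no filter, thinning to 2000 UMIs, 3 or more markers, a replicate block and leaving out each library. Depth was 71216133 to 122022000 UMIs per library; intervals cover counting error only. Without stated strand use in counting, overlapping genes cannot be told apart. In each population comparison, named genes were the 10 with the largest change each way among those past the threshold, with a mean of at least 5 log2 CPM and 1 direction in 5 of 5 libraries, passing over immunoglobulin segments, mitochondrial and ribosomal genes and unnamed models. For the regimen they were the 5 with the smallest p each way whose libraries did not overlap, with a mean of at least 4 log2 CPM. Some genes that met these rules are not reported here.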

Additional observations from a re-analysis of the deposited data

Results flagged for a closer look

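Retnla was singled out because the effect of HFD + L-NAME on it differed between transitional-like and Fcer2a-positive B cells, with a log2 difference of differences of -5.73 (edgeR adjusted p = 0.032). The value rests on 1 Fcer2a-positive cell of HFD + L-NAME library 2 with 537 UMIs. Retnla had 0 UMIs in both populations of chow library 1, HFD + L-NAME library 1 and the NO2-OA library.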

How the results depend on the processing

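For HFD + L-NAME against chow the count of 0 became 16 without the low-count filter and 2 to 261 with 1 library left out. Against Fcer2a-positive cells the count of 4684 became 2931 without cells holding UMIs of other blood cells. Against the Sox5 kind 3963 became 1499 without such cells and 2072 with cells thinned to 2000 UMIs. Of the called genes still tested, 99.2% and 99.1% kept their direction, in that order. Leaving out cells holding UMIs of other blood cells took out 91.9 to 98.2% of each population in HFD + L-NAME library 2. The interaction's count of 1 became 16 without the filter, 0 without cells holding UMIs of other blood cells and 0 to 259 with 1 library left out; under DESeq2 and with doublets left out it was 1 as well, but a higher gene. The difference in share of 5.51 points ranged from 0.883 to 10.1 with 1 library left out and kept its direction in each alternative run. The settings other than leaving out a library all held HFD + L-NAME library 2. HFD + L-NAME library 1 lay under the chow mean in 2 of them. These were thinning to 2000 UMIs (9.87% against 10.2%) and counting cells with or without Fcer2a (25.3% against 27.2%). Lgals3 turned to 0.40 against marker-low cells, and Fgf13 to 0.11 for the regimen, when cells holding UMIs of other blood cells were left out. Retnla, at -5.73, ranged from -6.22 to 0.48 with 1 library left out, turning to 0.48 without HFD + L-NAME library 2; its call was also lost under DESeq2, with doublets left out, with 3 or more markers and without either chow library. The cause was not tested. Lef1 and Tcf7l2 against the Sox5 kind lost their calls in some settings that left out 1 library.

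Chow and HFD + L-NAME libraries share replicate numbers, but nothing says that a number marks a pair, and 2 pairs cannot show it. Deviations of same-numbered libraries correlated across genes with r = 0.163 over 11957 genes, which are not independent. With the replicate number as a block, 4 genes passed for the regimen in place of 0, and 0 for the interaction in place of 1.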

Other observations

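A few transitional-like cells carried most of the UMIs of some genes. In chow library 1, Igha had 1962 UMIs in 6 cells, 1019 of them in 1 cell and Jchain had 1020 UMIs in 4 cells, 521 of them in 1 cell; both are known from antibody-secreting cells. In HFD + L-NAME library 2, Igll1 had 34 UMIs in 3 cells, 27 of them in 1 cell and Dntt had 36 UMIs in 2 cells, 35 of them in 1 cell; both are known from B cell precursors. Cells with at least 2 of the cell cycle genes Mki67, Ube2c, Birc5 and Cdk1 numbered 0 and 0 in chow 1 and 2, 0 and 5 in HFD + L-NAME 1 and 2, and 1 with NO2-OA, and 2 of those in HFD + L-NAME library 2 also held Igll1 or Dntt.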
